A study of Rattus norvegicus with 28 samples.

Results

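Neurotrophins and their receptors were followed through the amygdala of rat pups trained with an odor and a shock. The genes taken were Bdnf, Ntf3, Ntrk2, Ntrk3 and Ngfr, and every probe set that the authors' table for saline pups names with 1 of these symbols was used. This gave 8 probe sets for 5 genes, of 15866 probe sets measured on all arrays, 6025 of which carried 1 symbol, for 4835 genes. Ntrk2 had 3 probe sets, Bdnf had 2, and Ntf3, Ntrk3 and Ngfr had 1 each.

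The pups came in 6 groups, killed directly after a training session of 45 min with 11 presentations of a peppermint odor of 30 s. Paired pups of 8 days given saline (n = 7) received a tail shock of 1 s at 0.5 mA at the end of each odor, and their controls were unpaired pups of 8 days given saline (n = 7), which received it 2 min after each odor. Paired pups of 8 days given corticosterone (n = 3), the main glucocorticoid of the rat, were set against unpaired pups of 8 days given corticosterone (n = 3). Paired pups of 12 days with no agent (n = 4) were set against unpaired pups of 12 days with no agent (n = 4). All groups, controls included, thus had both the odor and the shock, and no group was left untrained. The dose of corticosterone and the strain are not given in the sources used here, and the labels do not say whether the 50 to 80 mg of tissue of a sample came from 1 pup or from a pool, so p-values measure the spread between these samples, which may be technical.

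Each sample was hybridised to 1 array, and values are log2 expression per probe set as deposited, with array medians of 6.05 to 6.19 in saline, 5.06 to 5.09 in corticosterone and 6.38 to 6.46 in 12-day arrays. Since these medians do not overlap, levels were compared between conditions mainly by the rank of a probe set within its array. This rank is given as a percentile of the 15866 probe sets. Values scaled by array medians or quantile normalized together were used as alternatives and are named where given. Of the 28 arrays, 8 were of a larger design (those of saline and 12-day replicates numbered 3 or 4) and 20 of a smaller one. Saline arrays fell into 3 sets (replicates 1 to 2, 3 to 4 and 5 to 7), 12-day arrays into 2 and corticosterone arrays into 1, and each set held equal numbers of paired and unpaired samples. The 6 measured markers of neurons averaged the 96.8th percentile or higher in every array, while the marker lists hold no gene found in the amygdala alone, so the dissection itself could not be checked.

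Neurotrophins are secreted growth factors that are made as proneurotrophins and cut to their mature form. Mature BDNF signals through the receptor tyrosine kinase TrkB, mature NT-3 mainly through TrkC, and all of them bind the low-affinity receptor p75. In the adult rodent amygdala, BDNF and TrkB are known for their part in the consolidation of learned fear. Bdnf is transcribed from several promoters, and transcription from some of them follows neuronal activity through CREB.

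The promoters of both ligand genes are shown because Bdnf and Ntf3 are the members on which the results turn. RefSeq (rat assembly GRCr8) held 6 start sites for Bdnf and 3 for Ntf3, and the 250 bases before each were searched on both strands for the short site that CREB binds, TGACG. A single Bdnf window held it, 35 bases before the start site and reading CGTCA on the printed strand (in capitals), and the other 5 Bdnf and 3 Ntf3 windows did not. Of 33469 rat windows of this length, 18.2% held the short site and 1.59% the full palindrome TGACGTCA, which no Bdnf or Ntf3 window held. The Bdnf window lies at chr3:116637608-116637857 on the plus strand and the Ntf3 window shown beside it, without the short site, at chr4:160668908-160669157 on the minus strand.
Bdnf: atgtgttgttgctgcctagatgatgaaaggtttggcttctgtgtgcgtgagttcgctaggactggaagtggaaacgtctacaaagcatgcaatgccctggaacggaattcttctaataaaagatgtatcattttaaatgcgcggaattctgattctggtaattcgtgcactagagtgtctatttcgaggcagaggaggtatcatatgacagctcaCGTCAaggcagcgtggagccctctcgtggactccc
Ntf3: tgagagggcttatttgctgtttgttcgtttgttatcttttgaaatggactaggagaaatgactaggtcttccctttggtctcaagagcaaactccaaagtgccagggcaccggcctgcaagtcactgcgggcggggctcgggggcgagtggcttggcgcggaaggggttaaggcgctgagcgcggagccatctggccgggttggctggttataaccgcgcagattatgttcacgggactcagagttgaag

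Bdnf, the gene of brain-derived neurotrophic factor, was the member with the largest difference between paired and unpaired saline pups, and its mean was lower after paired training. On probe set 1368677_at, replicates 1 and 2 measured 4.07 and 3.53 in paired pups, against 4.50 and 4.45 in unpaired pups (log2). Replicates 3 and 4 measured 4.20 and 4.29 in paired pups, against 5.13 and 5.46 in unpaired pups. In both of these sets every paired sample lay below every unpaired sample. Replicates 5 to 7 measured 5.53, 6.43 and 6.06 in paired pups, against 6.31, 6.31 and 6.07 in unpaired pups, and there the groups overlapped.

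The mean difference of Bdnf (paired minus unpaired) was -0.67 in the set of replicates 1 and 2, -1.05 in that of replicates 3 and 4 and -0.23 in that of replicates 5 to 7. Over the 3 sets it was -0.59 on the log2 scale (SE 0.17, 95% interval -0.96 to -0.22, n = 7 each). It was lower in the paired sample in 6 of 7 same-numbered pairs, a pairing that follows the array sets. The difference passed neither of the tests made across all probe sets. By limma within array sets its adjusted p was 0.663 (unadjusted 0.00428), and by rank product its estimated proportion of false positives (pfp) was 0.0611, against the limit of 0.05. The authors' deposited table gave a pfp of 0.0616 and a ratio of unpaired over paired pups of 1.504. An exact two-sided permutation of training within the 3 sets gave p = 0.0167 (720 relabellings, smallest possible p 0.00278), which became 0.267 when adjusted over the 24 such tests of members and conditions.

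None of the 8 member probe sets was called in saline pups by either test. Rank products called 28 of 15866 probe sets there (0.176%) and limma called 0 (0%), with 1088 at an unadjusted p under 0.05. When only arrays with the same replicate number were compared, rank products called 104 probe sets (0.655%), of which Bdnf was the single member, with a pfp of 0.00368, while limma with the replicate number as a block gave it an adjusted p of 0.2996. With the array sets as block and 1 array left out in turn, limma gave -0.70 to -0.51 with adjusted p of 0.154 to 0.841. In the fit within array sets 24 of the 15866 probe sets (0.151%) had a difference as far below 0 as that of Bdnf or farther. The call by rank product changed with the arrays kept. Leaving out 1 of paired replicates 5, 6 and 7 or of unpaired replicates 1 and 2 brought the pfp to between 0.00933 and 0.0406. Leaving out 1 of the other 9 arrays left it above 0.05, up to 0.177. Rank products compared every paired with every unpaired array, across sets of unlike Bdnf level, so a left-out array also unbalanced the sets. The mean difference then ran from -0.85 to -0.36.

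In the same arrays the mean differences of some lists of cell markers also lay mostly in a single direction, though no marker was called. Their part in the Bdnf difference was not tested. All 8 markers of striatal projection neurons were higher in paired saline pups (median 0.49 on the log2 scale, against 0.02 over all probe sets), with a mean level of 7.89 to 9.47 in paired and 6.93 to 8.94 in unpaired arrays. All 8 markers of oligodendrocytes were lower (median -0.24), with a mean level of 6.93 to 8.35 in paired and 6.97 to 8.74 in unpaired arrays. Of 4 markers of excitatory neurons, the cells known to make most of the cortical Bdnf transcript, 3 were lower and 1 was higher (median -0.08). None of these markers passed the test on its own, and in whole tissue fewer cells of a type and less RNA per cell cannot be told apart.

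**Figure D1:**
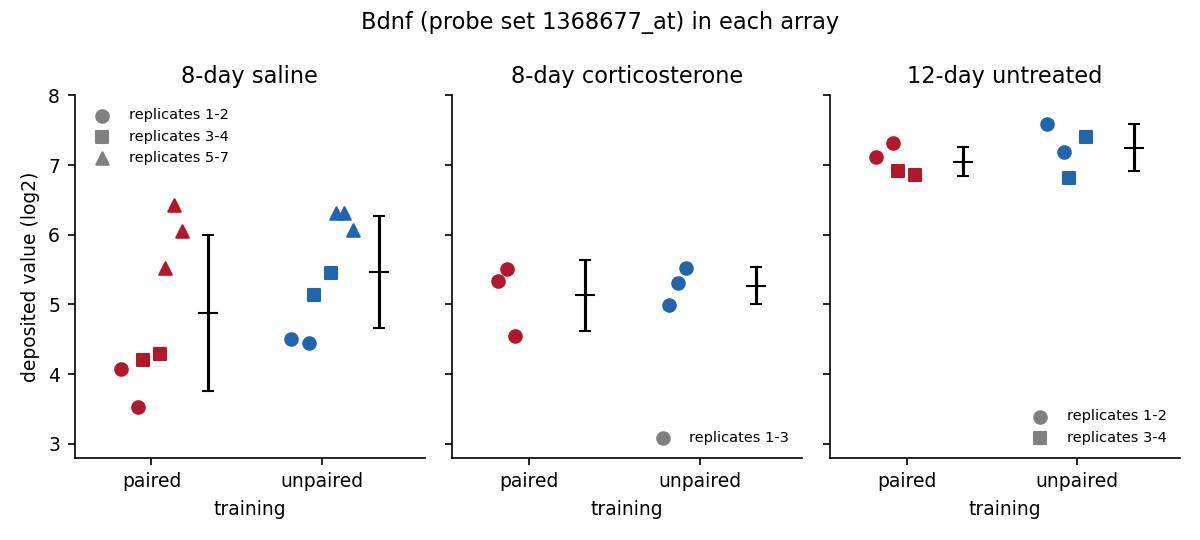
Deposited log2 value of Bdnf (probe set 1368677_at, vertical axis) in each array of the paired (red) and unpaired (blue) pups of the 3 conditions, with marker shapes for the array sets and black bars for the mean and SD of each group. In saline pups the paired points of replicates 1 to 2 and 3 to 4 lie below the unpaired points of the same shape, whereas those of replicates 5 to 7 overlap. The array medians differ between conditions, so heights are to be compared within a condition.

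In both other conditions the pairing difference of Bdnf was closer to 0. In corticosterone pups Bdnf measured 5.34, 5.51 and 4.55 in paired pups, against 4.99, 5.31 and 5.52 in unpaired pups, which is -0.14 apart (SE 0.27, 95% interval -0.79 to 0.51). In 12-day pups it measured 7.11, 7.32, 6.91 and 6.86 in paired pups, against 7.59, 7.19, 6.81 and 7.40 in unpaired pups, which is -0.20 apart (SE 0.15, 95% interval -0.54 to 0.14). In both conditions the groups overlapped. Exact permutations within sets gave p = 0.800 in corticosterone pups, where 0.1 is the smallest p that 3 against 3 samples allow, and p = 0.389 in 12-day pups, where it is 0.0556.

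Whether the Bdnf difference itself changed between conditions was tested in 1 limma model of all 28 arrays, and it was not called. The pairing effect was 0.45 higher in corticosterone than in saline pups (SE 0.31, 95% interval -0.19 to 1.09, adjusted p = 0.675) and 0.39 higher in 12-day than in saline pups (SE 0.28, 95% interval -0.19 to 0.97, adjusted p = 0.858). Between 12-day and corticosterone pups it differed by -0.06 (SE 0.34, 95% interval -0.77 to 0.65, adjusted p = 0.9995). All 3 intervals include 0, and those against saline pups also include a difference as large as the whole saline effect. None of the 8 members was called in any of the 3 contrasts, in which 1 (0.0063%), 0 (0%) and 0 (0%) of the 15866 probe sets were called.

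The other Bdnf probe set, 1368678_at, had a small difference of the opposite sign. It lay between 2.98 and 3.50 in all 14 saline arrays and was slightly higher in the paired sample of 7 of 7 same-numbered pairs. The mean difference was 0.07 (SE 0.07, adjusted p = 0.760 by limma). Probe set 1368678_at ranked between the 31.0th and 34.6th percentile in every array of the series, and with no detection calls at hand whether it lay above background was not tested.

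Ntf3, the gene of neurotrophin-3, showed no pairing difference beyond the spread between samples in any condition. In saline pups it ranged from 3.601 over a median of 4.86 to 5.27 in paired pups, and from 3.64 over a median of 4.72 to 5.21 in unpaired pups, with a mean difference of -0.05 (SE 0.15). Its lowest saline values, in paired and unpaired pups alike, were those of replicates 3 and 4 on the larger array design. The 3 paired corticosterone samples were at 3.52, 4.17 and 3.62, against 3.31, 3.51 and 4.01 in the unpaired ones, which differ by 0.16 (SE 0.23). In 12-day pups all 8 arrays lay between 2.90 and 2.998, with a difference of 0.02 (SE 0.04). The groups overlapped in all 3 conditions.

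Ntrk2, which encodes TrkB, the receptor of BDNF, lay at the 73.3rd percentile or higher in every array on 2 of its 3 probe sets. In saline pups probe set 1368972_at ranged from 8.78 over a median of 9.57 to 10.34 in paired pups, and from 8.77 over a median of 9.40 to 10.13 in unpaired pups. Probe set 1370687_a_at ranged from 8.62 over a median of 9.002 to 10.06 in paired pups, and from 8.79 over a median of 9.32 to 9.71 in unpaired pups. The differences were 0.10 (SE 0.09) on 1368972_at and -0.15 (SE 0.14) on 1370687_a_at, opposite in sign and both within the spread between samples. Probe set 1370652_at lay between 2.16 and 2.31 in saline arrays, with a difference of 0.03 (SE 0.01, unadjusted p = 0.0361, adjusted p = 0.663). In corticosterone pups the differences of the 3 probe sets lay between -0.03 and 0.08, and in 12-day pups between -0.01 and 0.03. The files do not say which TrkB isoform a probe set measures.

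Ntrk3, which encodes TrkC, the receptor of neurotrophin-3, stood apart in 1 array set. Replicates 1 and 2 of the saline pups measured 3.57 and 5.26 in paired pups, against 4.28 and 4.63 in unpaired pups. The other 10 saline arrays lay between 2.71 and 3.03. The pairing difference was -0.01 (SE 0.19) in saline, -0.02 (SE 0.04) in corticosterone and -0.09 (SE 0.14) in 12-day pups, and the groups overlapped in each.

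Ngfr, which encodes p75, the receptor shared by all neurotrophins, stood apart in 1 array. It lay between 2.84 and 3.37 in 27 of the 28 arrays, and at 4.69 in paired replicate 3 of the 12-day pups. In that condition it measured 2.93, 3.02, 4.69 and 3.13 in paired pups, against 3.04, 2.89, 3.14 and 3.37 in unpaired pups, with a mean difference of 0.33 (SE 0.30, adjusted p = 0.999). Without that array the difference was -0.05 (SE 0.08). The same array held the highest 12-day values of the cholinergic markers Slc18a3, the vesicular acetylcholine transporter, at 4.15 against 2.13 to 3.47 in the other 7 arrays, and Slc5a7, the choline transporter, at 8.56 against 6.996 to 8.25. Ache, acetylcholinesterase, went the other way and was lowest there, at 9.35 against 9.64 to 10.08, and Isl1, a transcription factor of cholinergic neurons, lay within the range of the others, at 4.51 against 2.57 to 4.95. The part of cholinergic cells in this Ngfr value was not tested.

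**Figure D2:**
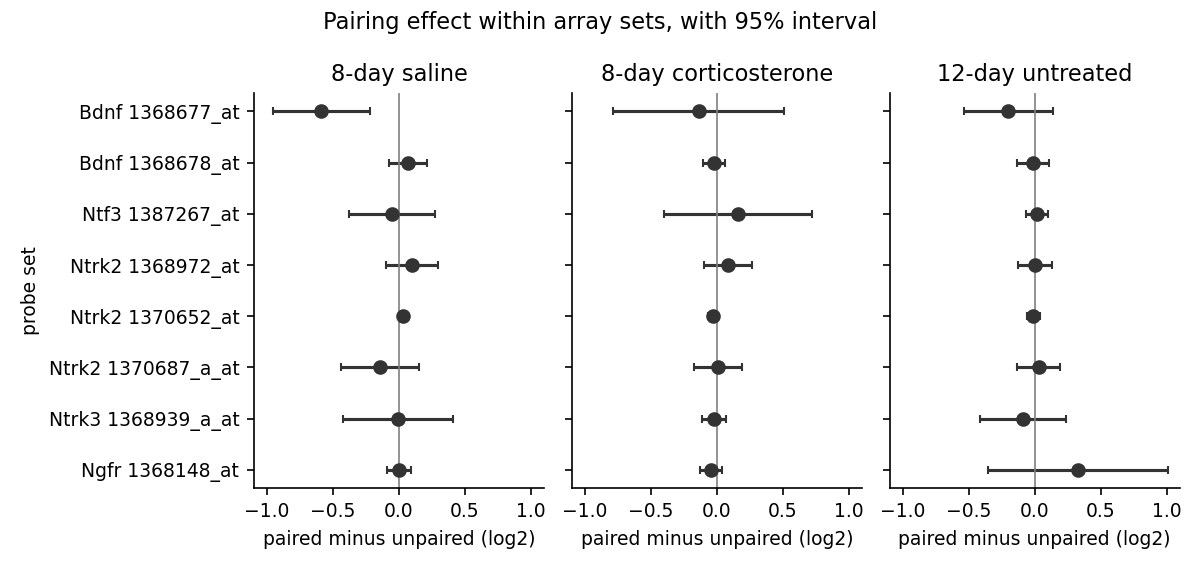
Paired minus unpaired difference (log2, horizontal axis) of each of the 8 probe sets within array sets, in saline, corticosterone and 12-day pups, with 95% intervals from limma before adjustment. Apart from Bdnf 1368677_at at -0.59 and Ntrk2 1370652_at at 0.03 in saline pups, every interval includes 0.

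None of the 8 members was called in corticosterone or 12-day pups either. Rank products called 4 of 15866 probe sets (0.0252%) in corticosterone pups and 8 (0.0504%) in 12-day pups. Limma called 0 (0%) in both, with 449 and 468 at an unadjusted p under 0.05.

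By rank within the array, Bdnf on probe set 1368677_at stood higher and Ntf3 lower in 12-day pups than in 8-day saline pups. Bdnf (1368677_at) lay between the 52.8th and 58.6th percentile in the 8 arrays of 12-day pups (median 54.8), and between the 36.4th and 52.4th in the 14 arrays of saline pups (median 45.0). Ntf3 lay between the 29.1st and 31.0th percentile in 12-day pups (median 29.3), and between the 35.5th and 45.1st in saline pups (median 43.0). Neither gene's groups overlapped. In limma with training and array design as covariates, Bdnf (1368677_at) rose by 10.7 points in 12-day pups (SE 1.87, adjusted p = 4.84e-05). Ntf3 fell by 11.1 points (SE 0.919, adjusted p = 1.57e-09). The fits of levels between conditions held no term for the array set. Arrays of a set were thus counted as independent, and these p-values may be too small. The other Bdnf probe set, 1368678_at, differed by 0.60 points and was not called, and by array medians it was lower in 12-day pups.

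Both changes were present on each array design. Bdnf was 9.99 points higher on the smaller design (SE 2.94, adjusted p = 0.0122) and 11.7 points higher on the larger design (SE 1.21, adjusted p = 0.000184). Ntf3 fell by 13.8 points on the smaller design (SE 0.917) and by 7.34 points on the larger design (SE 0.479). The saline sets themselves differed: Bdnf lay at the 36.4th to 41.7th percentile in replicates 1 and 2, at the 39.6th to 46.0th in replicates 3 and 4 and at the 46.9th to 52.4th in replicates 5 to 7, so the last set came nearest to the 12-day arrays. Without those 6 arrays the Bdnf difference was 14.02 points, and without the 4 arrays of replicates 1 and 2 it was 8.45 points.

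These 2 calls among 8 members stand against a background of 10061 of 15866 probe sets called (63.4%), so the share of members called was below that of all probe sets. Scaled by array medians instead of ranks, the median of all probe sets shifted by -0.26, and 29.8% rather than 54.5% of the calls were higher, while Bdnf still rose by 1.77 (SE 0.34) and Ntf3 fell by 1.80 (SE 0.18) on the log2 scale. A rise as large as that of Bdnf was found in 3.61% of the probe sets, and a fall as large as that of Ntf3 in 3.16%. Age, the saline injection and the separate processing of the conditions cannot be told apart. Ntf3 in 12-day pups lay between 2.90 and 2.998 (log2) in all 8 arrays, and whether it was above background there was not tested.

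None of the receptors was called in the main fit of this comparison. With 1 array left out in turn, the lowest adjusted p by limma was 0.0364 for Ntrk2 1368972_at and 0.00502 for Ntrk2 1370652_at. In the main fit Ntrk2 1370652_at differed by 0.49 points. The differences between 12-day and saline pups were 2.03 (SE 1.07) and 1.83 (SE 1.53) percentile points on Ntrk2 1368972_at and 1370687_a_at, -0.79 (SE 2.39) for Ntrk3 and 1.69 (SE 1.08) for Ngfr. Ntrk2 1368972_at ranked by array design within each condition. It lay at the 77.1st to 78.2nd percentile on the larger design and the 86.7th to 87.3rd on the smaller design in 12-day pups, and at the 75.5th to 78.4th on the larger and the 79.5th to 89.7th on the smaller in saline pups. Without the saline arrays of replicates 1 and 2, a choice made after seeing the data, Ntrk2 1368972_at and 1370687_a_at passed the test. They were at 3.18 points (adjusted p = 0.00150) and 3.14 points (adjusted p = 0.0151). Ntrk3 then turned to 2.30 points higher (adjusted p = 0.0255).

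**Figure D3:**
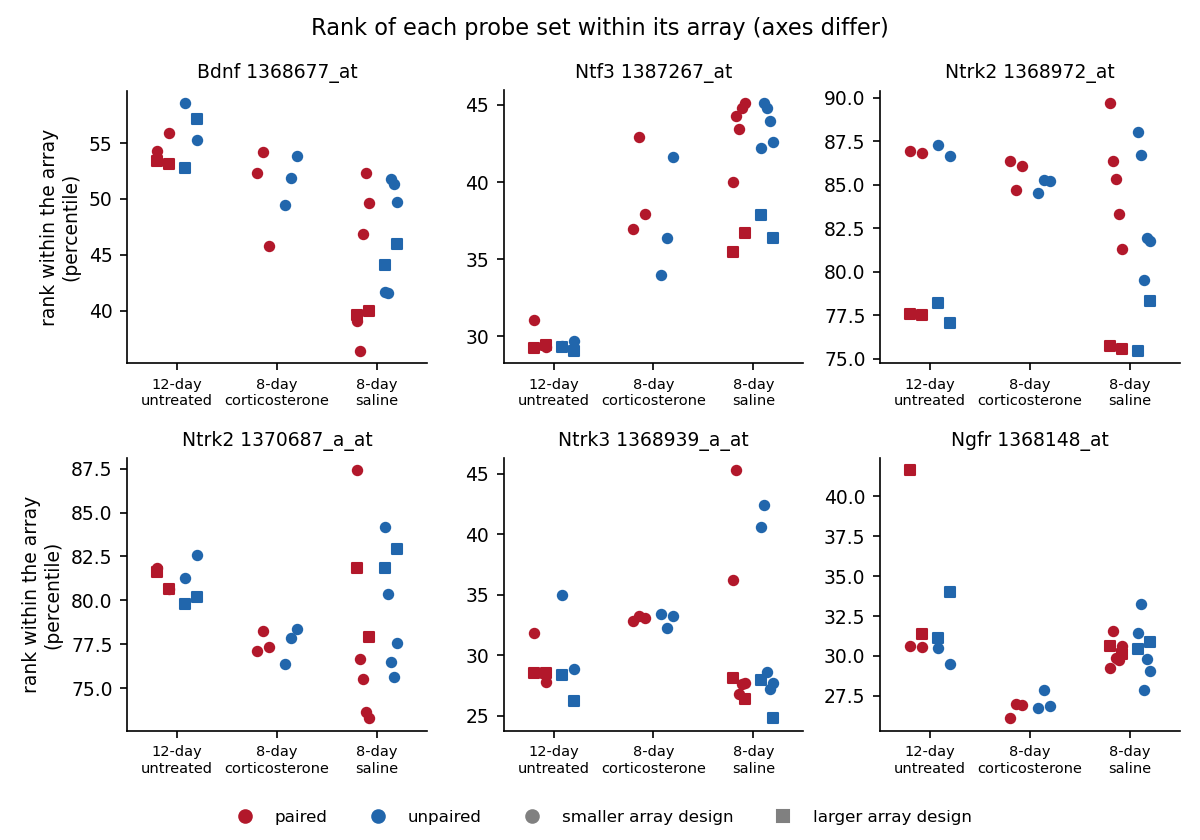
Percentile rank within the array (vertical axis, scale differing between panels) of 6 member probe sets in each array of the 12-day untreated, 8-day corticosterone and 8-day saline pups, with paired pups in red, unpaired pups in blue, circles for the smaller and squares for the larger array design. All 12-day points of Bdnf lie above, and all 12-day points of Ntf3 below, the saline points.

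Between corticosterone and saline pups, compared on the smaller array design, Ntf3 ranked lower and Bdnf was not called. Ntf3 lay between the 34.0th and 42.9th percentile in the 6 corticosterone arrays, and between the 40.0th and 45.1st in the 10 saline arrays of that design, with overlap. It fell by 5.32 points in corticosterone pups (SE 1.24, adjusted p = 0.00171), but its difference was -4.59 points, with an adjusted p of 0.0518, without the saline arrays of replicates 5 to 7. Bdnf (1368677_at) lay between the 45.8th and 54.2nd percentile in corticosterone pups, and was 5.19 points higher than in saline pups (SE 2.54, adjusted p = 0.0891). That difference was 11.6 points (adjusted p = 0.000235) without the saline arrays of replicates 5 to 7, 6.05 points (adjusted p = 0.0439) without paired saline replicate 6, and 0.948 points (adjusted p = 0.608) without those of replicates 1 and 2.

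In all, 4 of 8 members were called between corticosterone and saline pups, against 9848 of 15866 probe sets (62.1%), of which 44.9% were higher by ranks and 64.0% by array medians, where the median of all probe sets shifted by 0.28. Ntf3 was not called by array medians (-0.21, SE 0.18). The other 3 were Bdnf 1368678_at (1.44 points, SE 0.477), Ntrk2 1370652_at (-2.10 points, SE 0.334) and Ngfr (-3.34 points, SE 0.663). Ngfr lay between the 26.1st and 27.8th percentile in corticosterone pups, and its 14 saline arrays lay between the 27.9th and 33.3rd. By array medians, Ngfr and Ntrk2 1370652_at turned higher in corticosterone pups, so no direction is given for them. By the median rank, Bdnf 1368677_at followed the order of 12-day, corticosterone and saline pups, where the difference of the neighbouring corticosterone and saline pups was not called. By the same measure Ntf3 ran in the order of saline, corticosterone and 12-day pups. Levels of 12-day and corticosterone pups were not compared by a test. The medians cover both array designs in saline and 12-day pups, but only the smaller design in corticosterone pups. Agent and separate processing cannot be told apart here either.

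Most genes known to be induced by BDNF in neurons ranked higher in 12-day than in saline pups. The list, drawn up with earlier results of these data known, named 15 genes, of which 13 were measured. In 12-day against saline pups 11 of them were called higher and 2 lower, where 63.4% of all probe sets were called in either direction, and their median was 5.87 percentile points against 0.16 over all probe sets. By array medians 10 were called higher and 3 lower, with Atf3 turning lower. Arc, an immediate early gene that acts at synapses, rose by 22.6 points (SE 1.59), lying at the 59.2nd to 79.6th percentile in 12-day pups and the 45.6th to 51.5th in saline pups. Egr1, an immediate early transcription factor, rose by 7.62 points (SE 0.652) and Vgf, a neuropeptide precursor, by 6.75 points (SE 0.481). Dusp1, a phosphatase of MAP kinases, rose by 15.8 points (SE 1.27) and Nptx1, a secreted pentraxin of synapses, by 14.5 points (SE 1.36). The neuropeptide genes Npy and Sst were lower, with differences of -2.01 (SE 0.692) and -2.81 (SE 1.16) points. Between corticosterone and saline pups the list went both ways, with 5 of 13 called higher and 5 lower by array medians. With all arrays quantile normalized together, 6 were called higher and 5 lower. By ranks 62.1% of all probe sets were called in that comparison, in either direction. By ranks Arc differed there by -8.79 points (SE 0.543) and Dusp1 by -12.3 points (SE 1.56), whereas Bdnf 1368677_at was 5.19 points higher and not called.

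Between trainings none of these genes was called in saline pups. In paired against unpaired saline pups 10 of the 13 were higher and 3 lower, with a median of 0.02 on the log2 scale, against 0.02 over all probe sets, and 0 were called by limma, with 1 at an unadjusted p under 0.05. That gene was Egr1, at 0.22 higher in paired pups (SE 0.08, adjusted p = 0.663). Dusp1 differed by -0.19 (SE 0.11). In 12-day pups Arc had the smallest p of the list, at 0.47 higher in paired pups (SE 0.15, adjusted p = 0.999).

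Markers of some cell types stood higher in 12-day than in saline pups as well, and those of others lower. Their part in the ranks of Bdnf and of the genes it induces was not tested. By ranks, where 63.4% of all probe sets were called in either direction, all 8 oligodendrocyte markers were called higher, with a median of 30.7 percentile points. They averaged the 91.6th to 95.1st percentile in 12-day arrays and the 59.6th to 73.1st in saline arrays. Of 4 markers of excitatory neurons, 3 were called higher and 0 lower, with a median of 7.66 points. With all arrays quantile normalized together, 3 of these 4 were called higher and 1 lower. On that scale 1 of 6 markers of GABA neurons was called higher and 4 lower. This list shares Npy and Sst with the list of genes induced by BDNF. Of 5 choroid plexus markers 1 was called higher and 2 lower on the same scale.

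**Figure D4:**
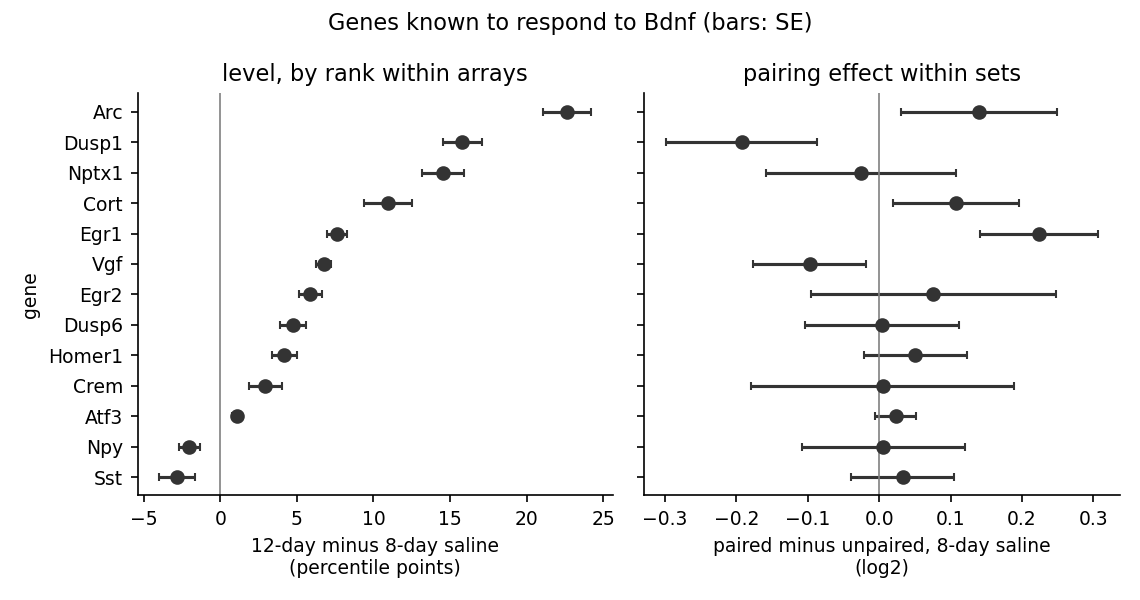
The 13 measured genes known to be induced by BDNF, with the difference between 12-day and 8-day saline pups in percentile points of the within-array rank (left) and the paired minus unpaired difference in saline pups on the log2 scale (right), each with its SE. Arc, Dusp1 and Nptx1 ranked 22.6, 15.8 and 14.5 points higher in 12-day than in saline pups, and the pairing differences of the 13 genes lie on both sides of 0.

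Since limma called 0 (0%) of all 15866 probe sets between trainings in each condition, the other pathway lists held no call either, which says nothing particular to them. The lists of further ligands and receptors (5 of 9 genes measured), proneurotrophin processing (12 of 12), Trk adaptors (10 of 20), the Ras and MAP kinase arm (14 of 18), the PI3 kinase arm (14 of 16), p75 partners (10 of 17) and the GDNF and CNTF family (9 of 12) are therefore given by single values only. In 12-day pups Gfra2, a receptor of neurturin, was 0.32 higher in paired pups (SE 0.10, adjusted p = 0.999).

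Between 12-day and saline pups the pathway lists were called in both directions. Of the 5 further ligands and receptors 1 was higher and 2 were lower: Sort1, the sorting receptor of proneurotrophins, rose by 17.1 points (SE 0.871), Nradd, a relative of p75, fell by 32.2 points (SE 0.297), and Kidins220, a scaffold of Trk receptors, fell by 1.48 points (SE 0.215). Of 12 processing genes 5 were higher and 3 lower, among them Pcsk2, a proprotein convertase, at 9.92 points higher (SE 1.81), but by array medians 1 was higher and 8 were lower. In the Ras and MAP kinase arm 3 of 14 were higher and 8 lower, and in the PI3 kinase arm 2 of 14 were higher and 6 lower. These shares, too, stand against 63.4% of all probe sets.

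The genes whose values went most closely with each member were read from the 28 arrays after the mean of each array set had been removed, as a description without a test, since arrays share their set, training and dissection. Bdnf (1368677_at) went with Calb2, the calcium-binding protein calretinin (r = 0.774), Adcy8, a calcium-stimulated adenylyl cyclase (r = 0.758), and Nefm, a neurofilament of neurons (r = 0.728). Training was not removed from these values, so genes chosen this way partly share the pairing difference of Bdnf by construction. Ntf3 went with Rpl23 (r = 0.634), Ntrk2 1368972_at with Rps12 (r = 0.697), Ntrk3 with Nfs1 (r = 0.804) and Ngfr with Pafah1b3 (r = 0.680). Ntrk3 spread most in saline replicates 1 and 2, and Ngfr stood apart at 4.69 in paired replicate 3 of the 12-day pups. The values of r for Ntrk3 and Ngfr therefore lean on few arrays. Among the members, Ntrk2 1368972_at and 1370687_a_at correlated at r = 0.414 with each other, and Bdnf and Ntrk2 1368972_at at r = -0.0058.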

How the data were processed

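Values of 28 Affymetrix arrays in 6 groups were used, with groups and replicate numbers from the labels. Per the submitters' processing notes RMA and GCRMA were used, and the deposited log2 values per probe set, whose medians differ by condition, were taken as given. The authors' deposited rank product tables hold a rank product score, a ratio of unpaired over paired pups and a p-value with a pfp for each probe set, and the deposited ratios followed from the log2 values to within 0.000307. Neither the annotation used nor software versions are given in the sources used here. Old symbols were updated through RefSeq accessions and symbols: of 15866 probe sets 6025 kept 1 symbol.

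Rank products of all paired and unpaired array differences (100 shuffles within arrays, pfp limit 0.05) and limma 3.58.1 in R 4.3.3 (lmFit, eBayes with a variance trend, array set as block, Benjamini-Hochberg over all probe sets, limit 0.05) were computed per condition, beside exact permutations of training within array sets. Both were tested on simulated data. Levels between conditions were compared by limma on within-array percentile ranks, without array set in the model. Where a gene had several probe sets, all are given for members and the one with the highest mean for other genes. Other genes are named by list: up to 4 called genes by smallest p, or up to 2 where none was called. One listed gene is not reported here. Likeness was taken against other genes whose probe sets had a mean log2 of at least 5. The members were not filtered, and the means of Ntf3, Ntrk3 and Ngfr were 3.93, 3.20 and 3.07. The members and lists were chosen with earlier results of these data known. The alternatives were other normalizations and scalings, a filter on low values (log2 of 5), other blocks, single array designs and left-out arrays. Their number, 3 to 7 per group, limits the precision.

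Deviations from group means correlated between same-numbered paired and unpaired samples at 0.537 to 0.860 in saline and 0.598 to 0.734 in 12-day pups, which taken alone pairs them, and at -0.283 to 0.0434 in corticosterone pups, which does not. Within array sets the correlations were -0.141 to 0.489 and -0.0752 to 0.232, so the pairing follows the sets.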

Additional observations from a re-analysis of the deposited data

Results flagged for a closer look

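Among 32 sets of 4 or more arrays per member probe set and group, 2 held an array far from the others of its group, and chance alone marks about 1 in 20 such sets. Ntrk3 (1368939_a_at) was at 5.26 (log2) in paired saline replicate 2, the highest of 7 paired saline arrays, of which replicate 1 came next at 3.57. Unpaired replicates 1 and 2 of the same array set were at 4.28 and 4.63. Ngfr (1368148_at) was at 4.69 in paired 12-day replicate 3, where the other paired 12-day arrays lay between 2.93 and 3.13.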

How the results depend on the processing

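Of 1497 member values under alternatives, 1466 kept their side of the threshold, 20 newly passed it, 3 no longer did, and 8 turned sign on a called value. Of the 1466, 119 were uncalled values that turned sign. With the replicate number as a block, 1 member (Bdnf) was called by rank product in saline pups, and 104, 7 and 34 probe sets were called in saline, corticosterone and 12-day pups, against 28, 4 and 8. With the filter on low values rank products called 15, 0 and 5. Limma called 0 members and 0 probe sets between trainings in each condition with or without either block, and the replicate block changed no other member call. Leaving out 1 array gave 0 to 1 members called by rank product in saline pups.

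Between 12-day and saline pups 4 members were called by array medians, 1 with the filter, which kept 3 member probe sets, 5 without saline replicates 1 to 2 and 4 without saline replicates 5 to 7, the last 2 choices made after seeing the data. On the larger array design alone 3 members were called. By array medians Bdnf 1368678_at was at -0.27 and Ntrk2 1370652_at at -0.37 (log2). Without replicates 1 to 2, Ntrk3 was at 2.30 points. Between corticosterone and saline pups 0 members were called with the filter and 7 without replicates 5 to 7, where Ntrk2 1368972_at was at -2.33 points. By array medians Ntrk2 1370652_at was at 1.13 and Ngfr at 0.93 (log2). Without replicates 1 to 2, Ntrk2 1370687_a_at was at 2.19 and Ntrk3 at 5.38 points. The cause of these changes was not tested. Values near the low end of the arrays are limited by signal over background, for which no detection calls were used.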
